A study of Homo sapiens with 6 samples.

Results

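RAB GTPases are small GTP-binding proteins of the RAS superfamily that direct membrane traffic. The 45 genes described here are those whose symbol is RAB followed by a number and at most 1 letter, and they come from 10779 genes in all. Of these, 38 of the 8121 genes with a translational efficiency and 40 of the 9570 transcripts with a codon-by-codon ribosome occupancy are RAB genes, and 33 are in both. The HEK293 line, derived from human embryonic kidney, was profiled in 1 condition that the labels give as control siRNA, with 3 libraries of ribosome-protected fragments (RPFs) and 3 libraries of total RNA numbered 1 to 3. Per the study's methods, the cells were treated before lysis with cycloheximide, which holds ribosomes on the mRNA, at 100 µg/ml. The lysis buffer held it at the same concentration, and each numbered pair of libraries came from the same lysate. With 1 condition, each gene is set against the rest of the table and no treatment is compared. The labels do not say whether the replicates were separate cultures, so p-values measure only the spread between these samples. Of 6 HEK293 markers, 5 were listed with a translational efficiency (VIM, NEFM, NEFL, KRT18 and LIN28B), and of 4 markers of blood and liver cells none was (0 of 4).

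A RAB protein cycles between a GDP-bound form that is carried in the cytosol and a GTP-bound form that sits on the membrane of a particular organelle and recruits effectors such as tethers and motors. Exchange factors load GTP, GTPase activating proteins end the signal, and prenylation of the carboxy terminus anchors the protein. The GTP pocket is built from short motifs that nearly all members share, among them the phosphate-binding loop, switch II and the guanine-specificity motif.

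Translational efficiency is the authors' ratio of RPFs to total RNA for a gene, and its median over all values was 0.383. Each gene was set against that median with limma on log2(ratio + 0.01), adjusted over 8121 genes at a false discovery rate of 0.05. The members lay mostly above the table: 33 of 38 were higher and 5 were lower, against 44.7% of all genes higher and 44.6% lower (89.3% called in either direction). The median of the 38 means was 0.996, and the means ran from 0.135 to 12.9, a range of 95.4-fold. Of the 38, 12 were in the top 10% of the table. Without replicate 1 the lower members were 3, since RAB36 and RAB5B lost the call. Among 828 other genes with a CDS in the same range of length (171 to 245 codons), 54.1% were higher and 34.4% lower, with a median of 0.511. The part of CDS length in the members' level was not tested beyond this.

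**Figure D1:**
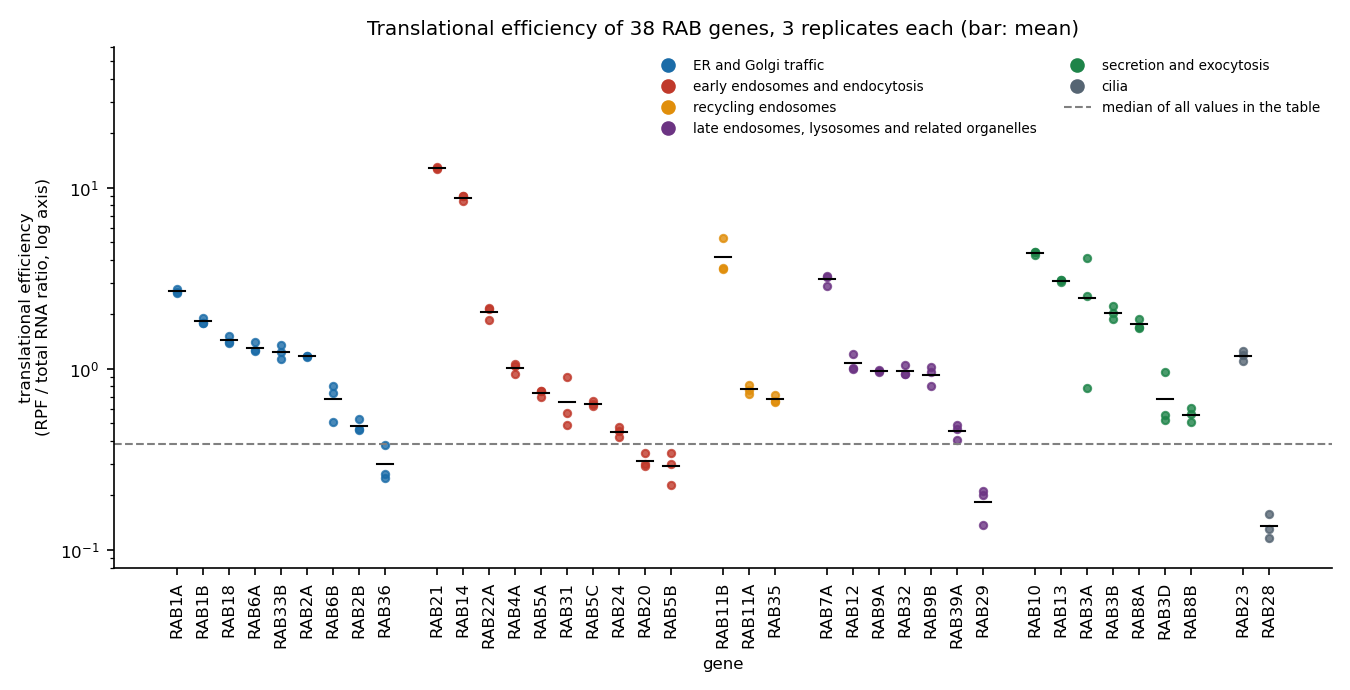
Translational efficiency (RPF over total RNA, log axis) of 38 RAB genes grouped by the organelle or step they serve, with 3 replicates as points and the mean as a bar. The dashed line is the median of all values in the table, 0.383, and RAB21 and RAB14 stand highest while RAB28 and RAB29 lie under the line.

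In the groups that serve the ER and Golgi, 8 of 9 members were higher and 1 was lower, with a median of 1.24. RAB1A, which acts in traffic from the ER to the Golgi, was highest of these, with 2.64, 2.76 and 2.68 in replicates 1, 2 and 3. Its 3 values lay above every value of the other members of this group. RAB36, which has been placed on the Golgi and late endosomes, was lowest, with 0.251, 0.263 and 0.379. RAB36 was lower by the test (log2 difference −0.38, SE 0.13, limma adjusted p = 0.0365), although replicate 3 came close to the table median. The call was lost without replicate 1 (limma adjusted p = 0.139) or without replicate 2 (limma adjusted p = 0.131).

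The endocytic members spanned the widest range. RAB21, which acts in endocytosis of integrins, had the highest translational efficiency of the family, with 13.1, 12.9 and 12.8 in the 3 replicates. RAB14, which works between the Golgi and early endosomes, followed with 9.02, 8.47 and 8.99. RAB21 lay above RAB14, and RAB14 above every other member, in all replicates. RAB21 ranked in the top 1% of the table, and it was the 1 member to do so. The log2 differences from the table median were 5.04 (SE 0.05) for RAB21 and 4.49 (SE 0.05) for RAB14, each with a limma adjusted p of 9.0e-07. On GRCh37 the RAB21 gene spans bases 72148643 to 72194066 of chromosome 12, and RAB14 spans 123940411 to 123985292 of chromosome 9.

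At the other end of the endocytic group, RAB5B, a paralog of the early endosome regulator RAB5A, had 0.297, 0.230 and 0.342. RAB20, which has been described on phagosomes and endosomes, had 0.345, 0.292 and 0.297. Both were lower than the table median, RAB5B by a log2 difference of −0.41 (SE 0.11, limma adjusted p = 0.0200) and RAB20 by −0.30 (SE 0.07, limma adjusted p = 0.00908). Without replicate 1 RAB5B lost the call (limma adjusted p = 0.0519). The other 8 of the 10 members of this group were higher. RAB24 among them was only just above the median (log2 difference 0.23, limma adjusted p = 0.0157) and lost the call without replicate 1 (limma adjusted p = 0.0699) or 2 (limma adjusted p = 0.0685).

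Among recycling endosome members, RAB11B, RAB11A and RAB35 were all higher (3 of 3). RAB11B, a regulator of recycling to the plasma membrane, had 5.27, 3.59 and 3.62, so that replicate 1 stood apart from the other two. Of the late endosome and lysosome members, 6 of 7 were higher. RAB7A, which drives fusion of late endosomes with lysosomes, had 3.28, 2.86 and 3.23. RAB29, a regulator of the kinase LRRK2, had 0.201, 0.137 and 0.212 and was lower (log2 difference −1.05, SE 0.13, limma adjusted p = 0.000814). RAB12, which acts in traffic from recycling endosomes to lysosomes, had 1.01, 1.20 and 1.00, near the middle of the family at rank 18.

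All 7 members of the secretory group were higher, with a median of 2.05. RAB10, which acts in insertion of transporters into the plasma membrane, had 4.44, 4.25 and 4.42. RAB3A, the synaptic vesicle RAB, had 2.53, 0.781 and 4.09. RAB3A was the 1 member of 38 whose highest value exceeded the lowest by more than 2-fold (5.23-fold), and its level is therefore poorly fixed (limma adjusted p = 0.00499, SE 0.46 on the log2 scale). Of the ciliary members, RAB23 had a mean of 1.18 ± 0.0739 (SD, n = 3). RAB28 had 0.117, 0.130 and 0.159, the lowest of the family (log2 difference −1.45, SE 0.09, limma adjusted p = 5.4e-05).

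The order of the members is coarse. Of 37 neighbouring pairs in the order of means, 29 had overlapping replicates, and the 8 that did not were RAB21 over RAB14, RAB14 over RAB10, RAB11B over RAB7A, RAB13 over RAB1A, RAB8A over RAB18, RAB5C over RAB8B, RAB24 over RAB20 and RAB5B over RAB29.

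Genes with the same RAB number are paralogs whose proteins overlap in function. There are 12 such pairs in the translational efficiency table, and in 9 the replicates of the pair did not overlap. The share of such pairs among other genes was not counted. The members' means span 95.4-fold with a median SD of 7.0%, so separation by itself is not a trait of paralogs. No test was made, because an exact test over 3 within-replicate differences cannot go below p = 0.25. RAB11B exceeded RAB11A most, by 2.39 ± 0.38 (SD, n = 3) on the log2 scale, or 5.25-fold. RAB11A had 0.730, 0.770 and 0.814, so that its highest value lay under the lowest of RAB11B, 3.59.

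RAB8A, which acts in polarised secretion, had 1.71, 1.69 and 1.88, and RAB8B had 0.561, 0.510 and 0.606. The difference was 1.64 ± 0.06 (SD, n = 3), with the smallest SD of the 12 pairs. RAB2A had 1.19, 1.18 and 1.16 and RAB2B had 0.530, 0.463 and 0.460, a difference of 1.26 ± 0.10 (SD, n = 3). Both RAB2 proteins act between the Golgi and the ER and in lysosome delivery.

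The RAB5 paralogs all act on early endosomes. RAB5A, with 0.754, 0.702 and 0.757, exceeded RAB5C, with 0.663, 0.644 and 0.626, by 0.19 ± 0.07 (SD, n = 3). RAB5B lay under RAB5A by 1.34 ± 0.23 (SD, n = 3) and under RAB5C by 1.14 ± 0.30 (SD, n = 3). RAB5B was the 1 RAB5 paralog under the table median.

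RAB1B had 1.90, 1.80 and 1.79, and RAB1A exceeded it by 0.55 ± 0.08 (SD, n = 3). RAB6A, a Golgi RAB, had 1.25, 1.27 and 1.41, and RAB6B, known from neurons, had 0.738, 0.807 and 0.507, a difference of 0.95 ± 0.44 (SD, n = 3). RAB9A had 0.977, 0.990 and 0.958 and RAB9B had 0.803, 0.956 and 1.02. That pair, which acts in retrieval from late endosomes to the Golgi, overlapped. RAB3B had 2.23, 2.03 and 1.88 and exceeded RAB3D, with 0.524, 0.559 and 0.963, by 1.62 ± 0.59 (SD, n = 3). RAB3A overlapped both RAB3B and RAB3D because of its replicate 2.

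**Figure D2:**
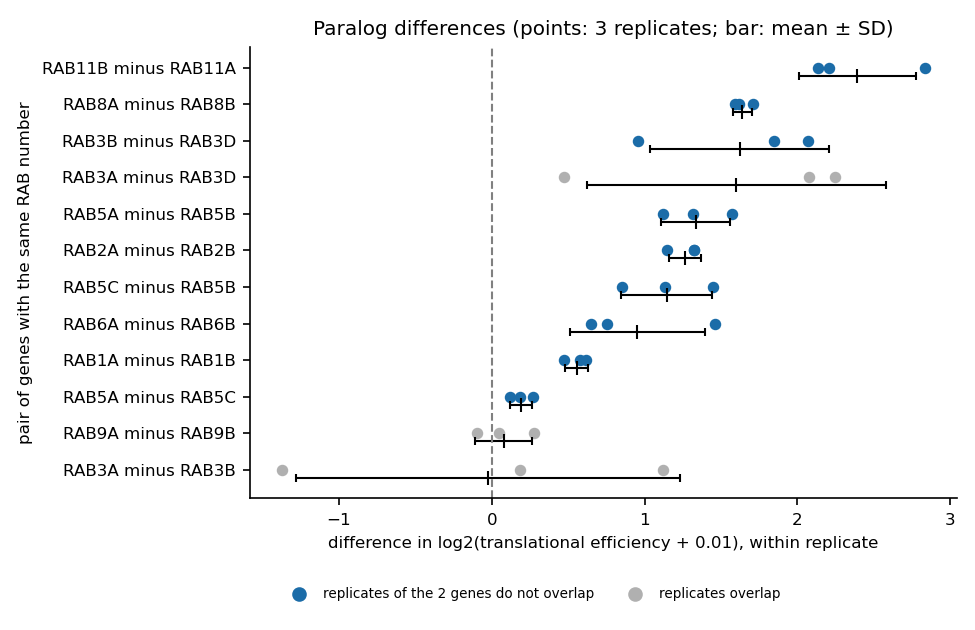
Within-replicate differences in log2(translational efficiency + 0.01) for 12 pairs of RAB genes with the same number, with 3 replicates as points and the mean ± SD as a bar. The 9 blue pairs have replicates that do not overlap, from RAB11B minus RAB11A at 2.39 to RAB5A minus RAB5C at 0.19, and the 3 grey pairs overlap.

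The exchange factors, GTPase activating proteins and effectors lay mostly below the table median. Of 24 exchange factors tested, 6 were higher and 15 lower, with a median of 0.241. Of 19 GTPase activating proteins, 6 were higher and 11 lower (median 0.279), and of 30 effectors 9 were higher and 18 lower (median 0.297). Their CDSs are longer than those of RABs: the median was 584.5 codons for exchange factors, 809 for GTPase activating proteins and 710 for effectors, against 213 for RABs and 420 for all genes. Whether length accounts for any of this was not tested.

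Individual regulators departed from their lists. Among exchange factors, CCZ1B, a subunit of the complex that loads RAB7, was highest, with 9.42, 11.2 and 7.78, and DENND5A was lowest, with 0.0287, 0.0304 and 0.0301. CCZ1B has a near-identical neighbour, CCZ1, so its value is uncertain. Among GTPase activating proteins, RAB3GAP2 was highest (0.985 ± 0.0495, SD, n = 3) and SGSM3 lowest (0.0967 ± 0.00258, SD, n = 3). Among effectors, EEA1, the early endosome tether that binds RAB5, had a mean of 2.47 ± 0.986 (SD, n = 3). RBSN, another RAB5 effector, had 0.0666 ± 0.00436 (SD, n = 3). These RAB5 effectors therefore lay at opposite ends of the effector list.

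Of the 9 prenylation and recycling proteins, 6 were higher and 3 lower, with a median of 0.812. RABIF, which binds nucleotide-free RABs, was highest (2.36 ± 0.315, SD, n = 3). RABAC1, a prenylated RAB acceptor, was lowest (0.122 ± 0.0121, SD, n = 3). Of 2 other GTPase families, 10 of 17 genes were higher in the RAS family (3 lower) and 16 of 24 in the ARF family (5 lower). The lower genes of the RAS family were 5 without replicate 3, and 6 among genes with a mean ratio of at least 0.1 or against the mean of the log2 values. The medians of the RAS and ARF families were 0.567 and 0.761. RAP1A (6.43 ± 0.758, SD, n = 3) and ARL3 (6.90 ± 0.624, SD, n = 3) led them, each under RAB21 and RAB14. NKIRAS2 (0.178 ± 0.0560, SD, n = 3) and ARL16 (0.0966 ± 0.00463, SD, n = 3) were the lowest.

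**Figure D3:**
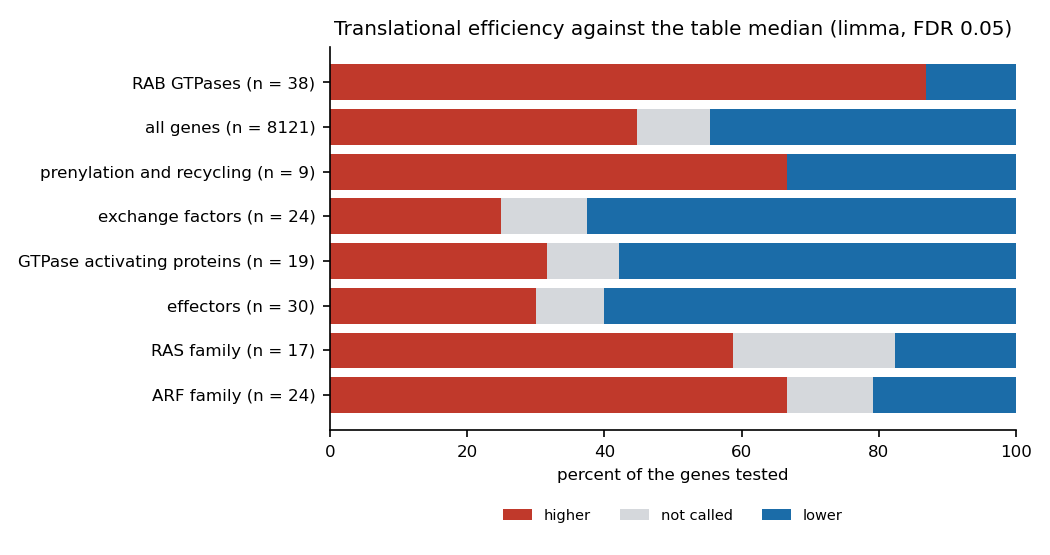
Share of genes called higher (red), lower (blue) or not called (grey) in translational efficiency against the table median by limma at a false discovery rate of 0.05. RABs show 33 of 38 higher, while exchange factors, GTPase activating proteins and effectors show 15 of 24, 11 of 19 and 18 of 30 lower.

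The second table gives occupancy along each mRNA, the authors' count of in-frame RPFs at a codon divided by the abundance of the mRNA, with the replicates combined. For the 40 RAB transcripts every one of 6128 codons above 0 could be split into whole reads of 3 read sets, 191409 reads in all. The sets were not assigned to numbered replicates, so values are given with their range over the sets or with a 95% exact (Clopper-Pearson) interval, which covers counting error only. Depth differed widely between members, from 64 reads in RAB39B to 26201 in RAB7A (median 2266).

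The median of the members' mean CDS occupancy was 0.121 per codon, against 0.0450 over all 9570 transcripts, and 29 of 40 lay above the latter. RAB11B (0.788), RAB7A (0.752) and RAB14 (0.738) were highest. The sets contributed 0.217 to 0.336 of the value in RAB11B, 0.229 to 0.267 in RAB7A and 0.243 to 0.252 in RAB14. The contributions of all 3 members overlapped. RAB40B (0.0108, 236 reads) and RAB15 (0.0154, 100 reads) were lowest. RAB40B carries a SOCS box that recruits a ubiquitin ligase, and the other such member, RAB40C, was next to them at 0.0172.

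Over the 33 shared members, occupancy and translational efficiency had a Spearman coefficient of 0.64, against 0.69 over 6912 genes. In 11 members the percentiles in the 2 tables were within 10 points of each other, and in 13 they were more than 20 apart. Both tables rest on the same RPF and total RNA libraries, so this is a description of 1 data set. RAB21, RAB14, RAB11B, RAB7A, RAB1A, RAB13 and RAB10 were at percentile 94.1 or above in both. Of 7 paralog pairs present in both tables, 3 kept their order in occupancy (RAB11, RAB1 and RAB2) and 4 had the opposite order, the 3 RAB5 pairs and RAB8B (0.124) over RAB8A (0.101). RAB5B departed most, at percentile 38.6 in translational efficiency and 96.0 in occupancy, and RAB31, at 68.5 and 29.2, departed most in the other direction. In RAB13, 203 of 204 codons have a 28-base window that occurs unchanged in a transcript of another annotated gene. RAB24 (204 of 204), RAB43 (180 of 213), RAB5C (168 of 217), RAB6A (74 of 176) and RAB1B (78 of 202) also share many windows, so the values of these members are uncertain. RAB5A shares fewer (47 of 216), but these held 27.9% of its CDS occupancy and include its highest codon, 143. Its place among the RAB5 paralogs is therefore uncertain too.

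**Figure D4:**
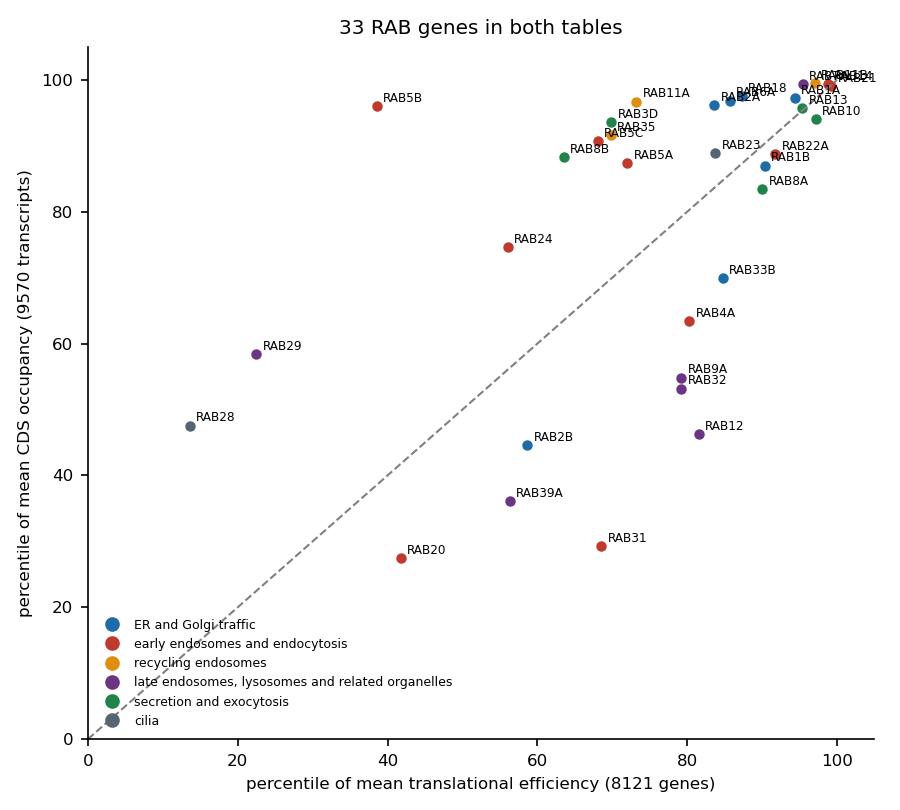
Percentile of mean translational efficiency (x axis, 8121 genes) against percentile of mean CDS occupancy (y axis, 9570 transcripts) for 33 RAB genes, coloured by role. RAB5B, at 38.6 and 96.0, lies farthest above the dashed diagonal of equal percentiles, and RAB31, at 68.5 and 29.2, lies farthest below it.

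Footprints were not even along the CDS. In the median member the highest codon held 7.21% of the in-frame CDS reads, and in 8 of 40 it held more than 10%. By summed occupancy its median share was 7.22% in the members and 4.95% over all transcripts. RAB CDSs are shorter than the median of all genes, and the part of length in this was not tested. RAB3D had the sharpest codon, number 78, with 167 of 903 reads (18.5%, 95% interval 16.0 to 21.2, sets 15 to 22.5%). RAB33B, a Golgi RAB that acts in autophagy, followed at codon 89 with 116 of 676 reads (17.2%, 14.4 to 20.2). RAB7A had 3912 of 25779 reads on its start codon (15.2%, 14.7 to 15.6, sets 14.5 to 15.4%). The codons of RAB3D and RAB33B are the same place in the protein, an ACA codon within the switch II motif.

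The footprint windows of those codons are printed to show how alike RAB genes are there. Each is 30 bases from GENCODE transcripts on GRCh37, 5′ to 3′, starting 13 bases before the codon, which is in capitals. RAB33B lies at chr4:140393842-140393871 (+ strand) and RAB35 at chr12:120541651-120541680 (− strand). The windows of RAB3D (chr19:11446440-11447857, − strand), RAB1B (chr11:66039717-66039858, + strand) and RAB7A (chr3:128516909-128525240, + strand) cross an exon junction, so these outer coordinates include an intron.
RAB3D codon 78: gcagatctgggacACAgcgggccaggagcg
RAB1B codon 64: tcagatctgggacACAgcgggccaggaacg
RAB35 codon 64: gcagatctgggacACAgcggggcaggagcg
RAB33B codon 89: ccagctatgggacACAgcaggacaagaacg
RAB7A codon 64: gcagatatgggacACAgcaggacaggaacg
Counted from 1 at the 5′ end, RAB3D differs from RAB1B by G1T and G28A and from RAB35 by C22G, and RAB33B differs from RAB7A by C1G, C5A and A25G.

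RAB3D codon 78 and RAB1B codon 64 had the same number of reads, 167, and the same set counts in ascending order, 35, 54 and 78. At the codon before, RAB3D had 110 and RAB1B 117, and at the codon before that, also within 2 mismatches, they had 10 and 112. RAB35 had 99 reads at its matching codon and RAB7A had 161 at its codon, so these did not equal the reads of RAB3D and RAB33B. The reads of RAB1B at codon 64 were 1.72% of its 9693 CDS reads, and those of RAB3D were 18.5% of 903.

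RAB5B and RAB5C showed the same over a longer stretch. RAB5B codons 69 to 78 held 1736 of its 4013 CDS reads (43.3%), and the aligned codons 70 to 79 of RAB5C held 1755 of 11294 (15.5%). Codon by codon RAB5B had 211, 86, 375, 321, 80, 407, 125, 24, 35 and 72 reads, and RAB5C had 213, 87, 379, 325, 82, 407, 125, 24, 38 and 75. At RAB5B codon 74 and RAB5C codon 75 the set counts in ascending order were also the same, 69, 147 and 191 reads. Just outside the stretch they parted, with 1 read in RAB5B against 156 in RAB5C on the 5′ side and 3 against 47 on the 3′ side. Further upstream they matched again at lower counts. RAB5B codons 51 to 55 had 13, 19, 0, 4 and 23 reads, and RAB5C codons 52 to 56 had 13, 19, 0, 4 and 24. The windows of 2 codons of the stretch from 69 to 78 are printed to show the match. They come from chr12:56383765-56383794 and chr12:56383774-56383803 (+ strand) for RAB5B and chr17:40280755-40280784 and chr17:40280746-40280775 (− strand) for RAB5C.
RAB5B codon 71: cacaacagtgaagTTTgagatctgggacac
RAB5C codon 72: cacaacagtcaagTTTgagatctgggacac
RAB5B codon 74: gaagtttgagatcTGGgacacagctgggca
RAB5C codon 75: caagtttgagatcTGGgacacagctggaca
The differences are G10C between codons 71 and 72 and G1C and G28A between codons 74 and 75.

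**Figure D5:**
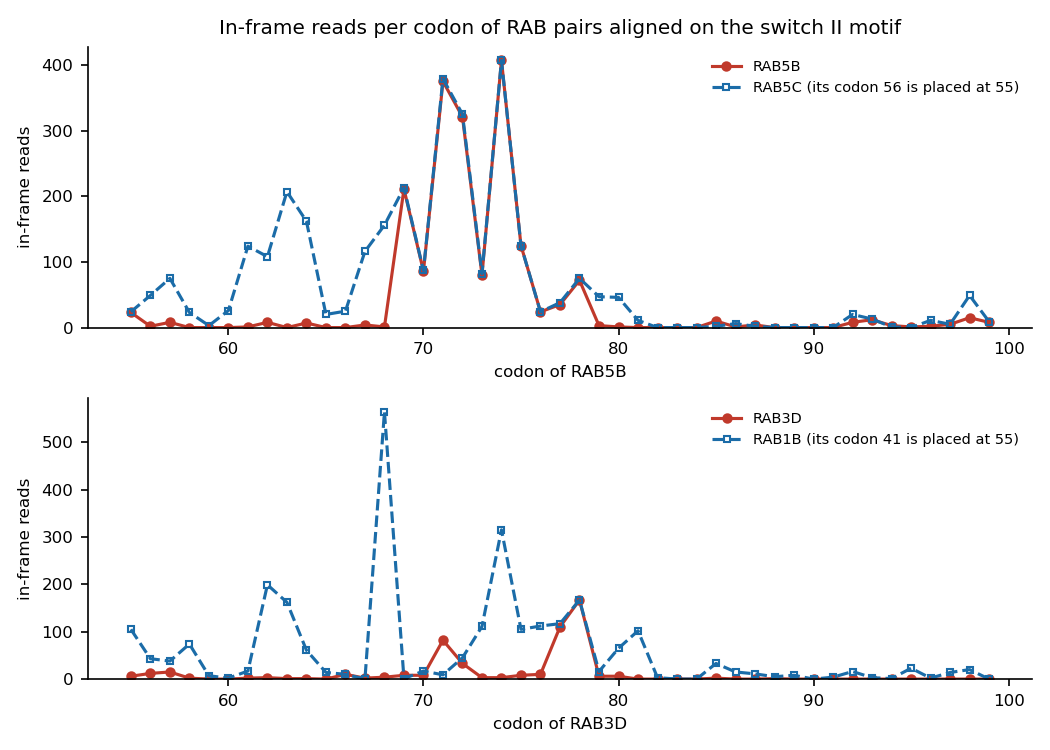
In-frame reads per codon (y axis) of RAB5B with RAB5C (top) and RAB3D with RAB1B (bottom), placed so that matching codons share an x position. The curves of RAB5B and RAB5C run together from codon 69 to 78 of RAB5B and part just outside. At codon 55 they also meet, with 23 and 24 reads. RAB3D meets RAB1B at codon 78, with 167 reads each.

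Near-identical windows did not always go with equal reads. Pairs of member codons were taken of which at least 1 had 50 reads or more. The lower count was within 2% of the higher in 4 of 7 pairs with 1 mismatch in 28 bases. All 7 were codons of RAB5B with RAB5C or of RAB35 with RAB3D, and the 4 were RAB5B with RAB5C. Codons of the same 2 genes are not independent cases. With 2 mismatches it was 3 of 17 pairs, where the lower count was a median of 21.7% of the higher. RAB8A and RAB8B at codon 43, for example, had 234 and 26 reads. Equal read numbers also arise between unrelated codons. Set counts were compared in ascending order within each codon, so equal counts need not come from the same set. Among 914 member codons with at least 50 reads, 25 pairs from different genes had the same set counts in that order. In 3 of these pairs the windows were within 2 mismatches, namely RAB5B with RAB5C at 2 codons and RAB1B with RAB3D. The remaining 22 pairs differed by 15 or more of 28 bases, and the highest of them had 115 reads. Whether the same sequenced reads were counted on more than 1 RAB transcript was not tested, since the tables hold no reads, and the sources used here do not give the mismatches allowed in alignment.

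Leaving out the codons whose 28-base window is within 2 mismatches of another RAB CDS, a choice made after these values were seen, removed 1801 reads from RAB5B and lowered its mean occupancy from 0.223 to 0.134. It removed 480 of 903 reads from RAB3D and lowered its mean from 0.169 to 0.0913. RAB5B thereby moved from percentile 96.0 to 89.9 and stayed far above its percentile in translational efficiency. In RAB6A such codons held 79.5% of the CDS reads, and leaving them out raised its mean from 0.252 to 0.367.

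At the switch II codon with the highest family average, that average was raised by a minority of the genes. Over 36 members with the motif, the codon 2 after its first one, where RAB3D and RAB33B peak, had a mean of 3.75 times the CDS mean of the gene, but a median of 0.73, and without RAB3D the mean was 2.71. The codon exceeded 2 times the CDS mean in 12 members and had no reads in 4. Just before the motif the rise was more widespread. The codon 2 before its first one had a mean of 2.68 and a median of 1.47 times the CDS mean. Without its highest gene that mean was 2.25, and 22 of 36 members were above 1. That gene was RAB5B at codon 72, within the stretch where its reads matched RAB5C. Around switch II, 97 codons within 2 mismatches of another RAB CDS had a mean of 3.41 and a median of 1.22 times the CDS mean. The 201 codons at 3 to 5 mismatches had 1.41 and 0.52, and the 98 at 6 or more had 1.27 and 0.83. The part of near-identical windows in these averages was not tested. Codons farther from switch II were also high. The codon 12 before its first one had a mean of 2.30 and a median of 1.21, with 20 of 36 members above 1. The codon 8 before had 2.34 and 0.77, with 16 of 36. The guanine-specificity motif reads the base of GTP. The codon after it (4 codons from its start) had a mean of 2.21 and a median of 1.64 times the CDS mean in 34 members. Of them, 21 were above 1. This was the highest mean within 15 codons on either side of that motif's start. The codons named here were picked by their values.

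Reads were also spread differently along the CDS. The first 75 codons had 3.08 times the occupancy of the last 75 in RAB1B (sets 2.90 to 3.22), 2.37 times in RAB11A (2.13 to 2.54) and 0.342 times in RAB32 (0.303 to 0.386). RAB12 had the lowest ratio, 0.199 (sets 0.185 to 0.211), with its highest codon at number 203. Much of its early CDS was empty, with no reads at codons 14 to 26. Its CDS could not be matched to the reference, so windows shared with other genes could not be checked there. Of 40 members, 19 had a ratio above 1, and the median was 0.920.

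In-frame footprints in the 5′UTR made up a median of 0.477% of a member's reads (0.288% without the 5 codons next to the AUG). By summed occupancy the median was 0.476% in the members and 0.364% over all transcripts. Only footprints in frame with the CDS are counted here, whereas the study used all frames for its 5′UTR occupancy. Of 40 members, 14 had more than 1%, and 7 had none. The same counts over all transcripts were not made, so these are not read as a trait of RABs. By summed occupancy RAB32, at 1.08%, lay at percentile 65.9 of all transcripts. A share of 0 lay at percentile 11.4, the mean rank of all transcripts tied at 0. Among genes in both tables the median 5′UTR was 74 codons in 33 members and 54 over 6912 genes. RAB8B, for example, had 0 of 2006 reads, which allows a share of up to 0.150% (3 counts of the total), and its exact interval reaches 0.184%. RAB9A was highest, with 275 of 3322 reads (8.28%, 95% interval 7.36 to 9.27, sets 7.82 to 9.82%). RAB24 had 101 of 1587 reads (6.36%, 5.21 to 7.68) and RAB23, a negative regulator of Hedgehog signalling, had 151 of 2412 (6.26%, 5.33 to 7.30). RAB5A had 245 of 4042 (6.06%, 5.35 to 6.84), but 124 of these lay on the codon just before the AUG, and without the 5 codons next to the AUG its share was 2.29%.

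For RAB9A, RAB10, RAB23 and RAB7A the window of the 5′UTR codon with the most reads is printed, because it shows which codon the footprints cover. Some members not printed had higher single codons, such as RAB1A with 81 reads at codon −23. The windows are 30 bases each with the covered codon in capitals, on GRCh37: RAB9A at chrX:13721936-13721965 (+ strand), RAB10 at chr2:26257021-26257050 (+ strand), RAB23 at chr6:57086991-57087020 (− strand) and RAB7A at chr3:128513517-128513546 (+ strand).
RAB9A codon −33: ctcttgcactcctGTAatgagcctggcact
RAB10 codon −148: gtttcctggggctATGtaactgagctcgtc
RAB23 codon −183: ctcaatctgagccCTGgctactaataaagt
RAB7A codon −35: agcagagatcaggCATttttcacatcttct

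In RAB10 the covered codon is an AUG followed directly by a stop, an open reading frame of 1 codon, and it held 43 of the 200 reads in that 5′UTR (21.5%). In RAB9A the 65 reads of codon −33 lie just before an AUG that is 32 codons upstream of the CDS. That AUG opens an in-frame reading frame of 5 codons, with 32 further reads of the 275 (11.6%). In RAB23 a CUG 183 codons upstream held 69 of 151 reads (45.7%), and in RAB7A the codon CAU at −35 held 175 of 407 (43.0%). Start codons other than AUG can be used in 5′UTRs, but these values do not show where ribosomes initiated. The study reported that most upstream reading frames were out of frame with the CDS, and such frames are not covered here.

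RAB6A had 252 reads in its 5′UTR (2.91%), on the last codons before the listed AUG. Of its 63 bases of 5′UTR, 29 are CDS in another annotated isoform, and without the 5 codons next to the AUG the share was 0.321%.

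In-frame footprints in the 3′UTR made up a median of 0.0634% of a member's reads, and 7 of 40 members were at 0. A share of 0 lay at percentile 21.4, the mean rank of all transcripts tied at 0. By summed occupancy the median was 0.0631% in the members, above the 0.0165% over all transcripts. The members' 3′UTRs are longer and their CDSs shorter. Among genes in both tables the median 3′UTR was 727 codons in 33 members and 381 over 6912 genes. The median CDS was 213 and 420 codons. The part of these lengths in the share was not tested. RAB2B stood apart, with 36 of 441 reads (8.16%, 95% interval 5.78 to 11.1, sets 5.46 to 10.1%). Its listed transcript has a CDS of 171 codons, the shortest of the family, and could not be matched to the reference by CDS length. RAB3D (13 of 918 reads, 1.42%, 0.756 to 2.41) and RAB30 (3 of 228 reads, 1.32%, 0.272 to 3.80) followed.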

How the data were processed

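RPF libraries and total RNA libraries came from HEK293 cells (3 of each). Per the submitters' processing notes, cutadapt 1.16, Bowtie 1.1.2, TopHat2 2.1.1, HTSeq 0.9.1 and build hg19 were used, whereas the methods name Hisat2 and not TopHat2 for total RNA. The study's methods name an offset of 13 for RPFs of 28 to 30 nt and division by TPM. The translational efficiency table holds the ratio of RPFs over total RNA per gene and replicate as deposited by the authors. The sources used here give neither its formula nor the read counts behind each ratio. The occupancy table was deposited with the replicates combined, so it gives no replicate error.

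limma 3.58.1 (R 4.3.3) set log2(ratio + 0.01) of every gene against the table median, adjusted after Benjamini and Hochberg, with no filter on low values. The test and the recovery of reads were checked on simulated data. Occupancy values were split into whole reads of 3 steps at a relative tolerance of 2e-13. Of 40 members, 37 were matched to GENCODE transcripts on GRCh37 by symbol and CDS length. The RefSeq protein table was not used here, so motifs were located in the translated CDS. Named genes are the 5 highest and 5 lowest members, all paralog groups, RAB12, the extremes of each occupancy measure and of each list, and genes added after their values were seen (RAB5A, RAB6A, RAB10 and RAB7A in the 5′UTR, the members of matching codons and of the ratio along the CDS). A further list of genes is not reported here. The members and lists were chosen with earlier results of these data known. Other steps used pandas 2.3.3, scipy 1.17.1 and numpy 2.4.6 in Python 3.11.15.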

Additional observations from a re-analysis of the deposited data

How the results depend on the processing

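For the members, 33 were higher and 5 lower in translational efficiency with a pseudocount of 0.1, with no pseudocount and with the replicate block, in which each replicate is centred on its own median. The pairing of RPF and total RNA libraries is part of the deposited ratio, and the replicate block changed no member's call. The counts were 31 and 5 among genes with a mean ratio of at least 0.1, 30 and 5 against the mean of the log2 values, and 31 to 32 higher and 3 to 5 lower when each replicate was left out. The members that lost their call in one of these were RAB24, RAB39A, RAB2B, RAB36 and RAB5B, the last without replicate 1 (limma adjusted p = 0.0519). The 3 lower members without replicate 1 lack RAB36 and RAB5B. Of the RAS family, 6 instead of 3 were lower with the filter and with the mean as reference, and 3 to 5 when a replicate was left out. The log2 difference of RAB9A minus RAB9B ran from −0.022 to 0.16 when a replicate was left out and changed sign without replicate 1, and RAB3A minus RAB3B ran from −0.59 to 0.65 and changed sign without replicate 2. The median CDS occupancy of the members was 0.0353 per codon with the median over codons. The median 5′UTR share was 0.288% without the 5 codons next to the AUG, and RAB9A then had 7.02%. The median share of the highest codon was 8.0% without the first and last 15 codons. At the highest switch II codon the median over members was 0.73. The other alternatives kept these values within their limits. Shares of members with under 250 reads, such as RAB15, RAB20, RAB30, RAB39B and RAB40B, are limited by depth.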
